A study of Rattus norvegicus with 18 samples.

Results

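The genes described here mark the cells that wrap brain vessels: 5 genes used as pericyte markers (Pdgfrb, Rgs5, Abcc9, Vtn and Kcnj8), 3 genes of contractile smooth muscle (Acta2, Myh11 and Tagln) and 2 genes of fibroblasts (Dcn and Lum). They were chosen by name, and every array probe whose transcript accession maps to one of them was taken. The 10 genes had 12 of the 45598 probes on the array, and 11 of these probes were tested among 31293 in all. On the array, 16665 genes had a name and 13051 of them were tested. RNA came from the dissected hypothalamus of 18 male Wistar rats aged 9 weeks, 1 rat and 1 array each. The 6 control rats were neither restrained nor given a wheel. The 6 stressed rats underwent restraint of 1 to 1.5 h on each of 5 days per week, for 3 weeks. Another 6 rats combined this restraint with voluntary wheel running (stress and exercise), which lasted 4 weeks and began 1 week before the first restraint. All rats fed and drank freely and were killed by ether and decapitation. By its title the series concerns exercise in hypertension brought on by chronic stress.

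Pericytes sit within the basement membrane of brain capillaries, where they regulate capillary tone and help to maintain the blood-brain barrier. Smooth muscle cells circle arterioles and contract through an actin and myosin apparatus whose genes are controlled by serum response factor. Fibroblasts lie around larger vessels and in the meninges and secrete collagens and small proteoglycans. Pdgfrb encodes the receptor for the endothelial growth factor PDGF-B that recruits pericytes, and Rgs5 encodes a regulator that shortens signalling by G proteins. Kcnj8 and Abcc9 encode the pore (Kir6.1) and the sulphonylurea receptor (SUR2) of the ATP-sensitive potassium channel of vascular mural cells. Vtn encodes vitronectin, a matrix protein that binds integrins. Acta2 encodes smooth muscle actin, Myh11 the smooth muscle myosin heavy chain and Tagln the actin-binding protein transgelin. Dcn and Lum encode decorin and lumican, small leucine-rich proteoglycans that bind collagen. Because Dcn and Lum are fibroblast genes, they are treated as a group of their own and not as mural genes.

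Sequence before the gene start is shown for the 3 genes that passed the test in some comparison, since contractile genes are known targets of serum response factor through the CArG box. The windows are the 250 bases before the start in RefSeq on build GRCr8, which held an entry for 6 of the 10 genes (Abcc9, Acta2, Kcnj8, Lum, Rgs5 and Vtn). Both strands were searched for CC, 6 letters that are A or T, and GG, and then for the same box with up to 1 of the 6 letters being G or C. The second search was added after the Acta2 sequence had been seen, and capitals mark its matches. Sequences read 5′ to 3′ along the gene's strand.
Acta2, chr1:241172504-241172753, minus strand: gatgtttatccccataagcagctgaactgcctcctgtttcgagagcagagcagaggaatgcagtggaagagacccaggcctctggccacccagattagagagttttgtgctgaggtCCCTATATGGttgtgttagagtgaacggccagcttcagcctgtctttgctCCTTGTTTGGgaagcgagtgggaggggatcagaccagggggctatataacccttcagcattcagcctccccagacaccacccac
Rgs5, chr13:84380827-84381076, plus strand: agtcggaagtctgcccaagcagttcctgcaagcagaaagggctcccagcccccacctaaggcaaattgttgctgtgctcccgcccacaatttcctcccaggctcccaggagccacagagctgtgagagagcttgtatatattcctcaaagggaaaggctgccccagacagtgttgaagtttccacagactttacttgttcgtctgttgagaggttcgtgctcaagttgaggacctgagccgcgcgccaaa
Abcc9, chr4:177386349-177386598, minus strand: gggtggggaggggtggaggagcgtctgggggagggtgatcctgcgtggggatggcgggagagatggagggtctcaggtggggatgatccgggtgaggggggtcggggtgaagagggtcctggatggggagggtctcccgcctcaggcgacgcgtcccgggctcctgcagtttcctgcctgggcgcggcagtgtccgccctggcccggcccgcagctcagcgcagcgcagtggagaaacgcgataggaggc
The strict box was in 0 of the 6 windows and in 501 of 33469 windows of all genes (1.50%). With 1 other letter allowed, the Acta2 window held 2 matches that do not overlap, and the windows of the other 5 genes held none. The match CCCTATATGG began 134 bases before the start, and CCTTGTTTGG began 84 bases before it. Of all windows, 8.08% held such a match. The Abcc9 window was 71.2% G and C, the Acta2 window 54% and the Rgs5 window 54.4%, against a median of 51.2% over all windows. In the same gene table Kcnj8 and Abcc9 are neighbours on chromosome 4, and Dcn and Lum are neighbours on chromosome 7, with 0 genes starting between them in either pair.

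Levels are log2 of the array's processed intensity minus the same array's 75th percentile, so 0 is that percentile and 1 unit is a factor of 2 in intensity. The percentile lay between 1963 and 2422 intensity units, the share of probes well above background was 63.6% to 77.7% per array, and no spot was saturated. The hypothalamus markers Oxt, Avp, Pmch, Hcrt, Pomc, Agrp, Nkx2-1 and Sim1 were all tested, with a summed level of 6.63 to 6.98 over the arrays. The arrays lay on 5 slides: control on slides 1 and 2, stress 1 to 4 on slide 3, stress 5 and 6 with stress and exercise 1 and 2 on slide 4, and the other exercised rats on slide 5. The first principal component of all tested probes was 21.0 to 33.7 for the 10 arrays from slides 1 to 3, and -40.7 to -24.8 for the 8 from slides 4 and 5. Control lay wholly on slides 1 to 3 and stress with exercise wholly on slides 4 and 5, so for that comparison slide set and condition cannot be told apart, except as far as the stress arrays of both sets allow. Control and stress arrays never shared a slide.

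**Figure D1:**
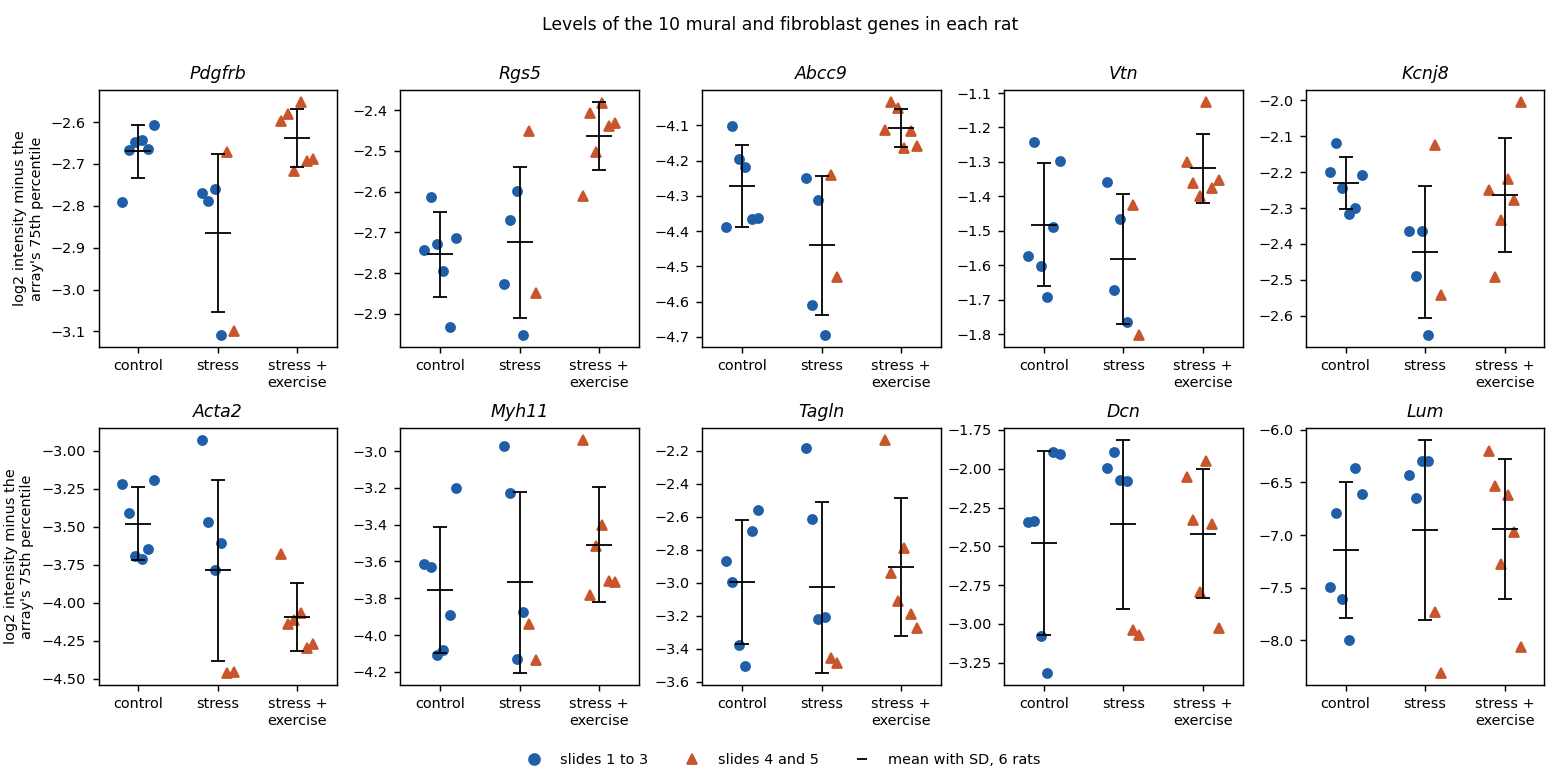
Level of each gene (log2 intensity minus the array's 75th percentile) in every rat, by group, with the mean and SD of 6 rats. Circles are arrays of slides 1 to 3 and triangles arrays of slides 4 and 5; Abcc9 in stressed rats with exercise, at -4.17 to -4.03, lies wholly above stress, and stress 5 and 6 are the lowest points for Acta2.

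The pericyte genes moved within narrow ranges. Abcc9, the receptor subunit of the channel, ran from -4.39 to -4.10 in control (median -4.29), from -4.69 to -4.24 in stress (median -4.42) and from -4.17 to -4.03 with stress and exercise (median -4.12). All 6 exercised rats lay above all 6 stressed rats, and control overlapped with both. Pdgfrb, the PDGF receptor, ran from -2.79 to -2.61 in control (median -2.66), from -3.11 to -2.67 in stress (median -2.78) and from -2.72 to -2.55 with exercise (median -2.64). Stress 4 and stress 6, at -3.11 and -3.10, lay clear of every other rat. These 2 arrays were on different slides, 3 and 4.

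Rgs5, the G protein regulator, had a brighter and a dimmer probe. On the brighter, levels were -2.93 to -2.61 in control (median -2.74), -2.95 to -2.45 in stress (median -2.75) and -2.61 to -2.38 with exercise (median -2.44). Exercised rats were all above control, by a narrow margin (-2.611 against -2.614 at the nearest), while stress 5 (-2.45) sat among the exercised rats of its slide set. On the dimmer probe the groups overlapped throughout, at -3.94 to -3.66 in control, -4.10 to -3.72 in stress and -3.87 to -3.54 with exercise. Across arrays the probes had a Pearson r of 0.79 on slides 1 to 3 (n = 10, permutation p = 0.00527, rho 0.64, p = 0.0533) and of 0.69 on slides 4 and 5 (n = 8, exact permutation p = 0.0382, rho 0.55, p = 0.171). Abcc9 also had another probe, which was well above background on 0 of 18 arrays and was not tested.

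Vtn, which encodes vitronectin, ran from -1.69 to -1.24 in control (median -1.53), from -1.80 to -1.36 in stress (median -1.57) and from -1.40 to -1.13 with exercise (median -1.36). Its groups overlapped, with the lowest levels in stress 6 and stress 4 (-1.80 and -1.76). Kcnj8, the pore of the channel, ran from -2.32 to -2.12 in control (median -2.22), from -2.65 to -2.12 in stress (median -2.43) and from -2.49 to -2.0 with exercise (median -2.26). Stress 4 and stress 6 were again lowest, at -2.65 and -2.54, and the groups overlapped. Stress 4 also had the smallest share of probes well above background (63.6%), while stress 6 had 70.1%. The part of that measure in these low levels was not tested.

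The contractile genes had wide ranges within groups. Acta2, smooth muscle actin, ran from -3.71 to -3.19 in control (median -3.53), from -4.46 to -2.93 in stress (median -3.70) and from -4.30 to -3.68 with exercise (median -4.13). Within stress the 4 rats of slide 3 were at -3.78 to -2.93 and both rats of slide 4 at -4.46. Among the exercised rats only stress and exercise 1, at -3.68, reached into the control range. Myh11, the myosin heavy chain, ran from -4.11 to -3.20 in control (median -3.76), from -4.14 to -2.97 in stress (median -3.91) and from -3.78 to -2.94 with exercise (median -3.61). Tagln, transgelin, ran from -3.50 to -2.56 in control (median -2.93), from -3.49 to -2.18 in stress (median -3.21) and from -3.28 to -2.13 with exercise (median -3.02). For both genes the groups overlapped, and stress 1 and stress and exercise 1 were the highest rats.

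The fibroblast genes had the largest spread within groups of the 10 genes. Dcn, decorin, ran from -3.32 to -1.89 in control (median -2.34), from -3.07 to -1.89 in stress (median -2.08) and from -3.03 to -1.95 with exercise (median -2.34). Low rats were found in every group: control 3 and 4 (-3.08 and -3.32), stress 5 and 6 (-3.04 and -3.07) and stress and exercise 6 (-3.03). Lum, lumican, was well above background on 15 of 18 arrays and ran from -8.00 to -6.36 in control (median -7.14), from -8.31 to -6.30 in stress (median -6.54) and from -8.06 to -6.20 with exercise (median -6.79). Its groups overlapped, and control 4, stress 6 and stress and exercise 6 were the lowest rats. The hypothalamus was dissected, and the amount of attached membrane or vessel per rat was not analysed here. In bulk tissue, fewer cells of a type and less RNA per cell cannot be told apart.

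The spread between rats of 1 group was smallest for the pericyte genes. The residual SD from the fit was 0.12 for Pdgfrb, 0.13 for Rgs5, 0.14 for Abcc9, 0.15 for Kcnj8 and 0.16 for Vtn, where the median over 31114 tested probes with values on every array was 0.15. It was 0.39 for Acta2 and for Myh11, 0.44 for Tagln, 0.52 for Dcn and 0.73 for Lum. Between 87.8% and 97.9% of tested probes had a smaller SD than these 5 genes. Stress rats lay on both slide sets, so the residual SD also holds any shift between the sets. For Acta2 the SD was 0.60 in stress, against 0.24 in control and 0.22 with exercise. For Dcn it was 0.55 in stress, against 0.60 in control and 0.42 with exercise. Dim probes vary more, so each gene was also set against probes of like level. The share of such probes with a smaller SD was 29.3% for Abcc9, 56.3% for Pdgfrb, 63.9% for Rgs5, 74.3% for Kcnj8 and 85.3% for Vtn. It was 96.5% for Acta2, 96.7% for Myh11, 98.2% for Tagln, 99.1% for Dcn and 90.7% for Lum. On this measure Lum lay below the smooth muscle genes.

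None of the 10 genes passed the test between stress and control, the comparison that concerns restraint without running. With limma, 0 of 10 genes were called between stress and control, against 0% of all 31293 probes, of which 3696 had an unadjusted p under 0.05. Pdgfrb was 0.20 lower in stress on the log2 scale (difference -0.20, SE 0.07, 6 of 6 rats below the control mean), with an adjusted p of 0.347 in limma. Kcnj8 differed by -0.19 (SE 0.08, limma adjusted p = 0.399) and Abcc9 by -0.17 (SE 0.08, limma adjusted p = 0.415). Rgs5 differed by 0.03, Vtn by -0.10, Acta2 by -0.31, Myh11 by 0.04, Tagln by -0.03, Dcn by 0.12 and Lum by 0.19. The 95% intervals were narrow for the pericyte genes (-0.34 to -0.05 for Pdgfrb) and wide for the others (-0.76 to 0.15 for Acta2 and -0.65 to 1.03 for Lum). They come from the fit with group as the only term and are not adjusted for the number of probes. They make no allowance for slide, and control and stress never shared a slide. On scan day 1, where 4 control and 2 stress arrays were read, Acta2 passed at -0.90 (limma adjusted p = 0.0253), and on scan day 2 it differed by -0.13 (adjusted p = 0.796). Acta2 was the 1 of 10 genes called on day 1, beside 3749 of all 31293 probes. Both stress arrays of day 1 were on slide 4 and all its control arrays on slide 2.

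In the comparison of stress and exercise with stress, which asks what running added to restraint, Abcc9 rose by 0.33 (SE 0.08, a factor of 1.26 in intensity, limma adjusted p = 0.0406). All 6 exercised rats were above the stress mean, and the groups did not overlap (exact permutation p = 0.00216, two-sided and unadjusted, the smallest that 924 arrangements allow). The share of all probes whose groups did not overlap is not given here. Abcc9 was the only 1 of 10 genes called, against 3.73% of all probes (1.17% higher and 2.56% lower). Its channel partner Kcnj8 differed by 0.16 (SE 0.08, limma adjusted p = 0.251). The 3 other pericyte genes were also higher without passing: Rgs5 by 0.26 (SE 0.08, limma adjusted p = 0.0584), Pdgfrb by 0.23 (SE 0.07, limma adjusted p = 0.0683) and Vtn by 0.26 (SE 0.09, limma adjusted p = 0.0927). The median difference of the 5 pericyte genes was 0.26, against 0.02 over all tested probes. With slide set as a covariate Abcc9 differed by 0.28 (limma adjusted p = 0.713), and within slides 4 and 5 by 0.28 (2 stress and 6 exercised rats, limma adjusted p = 0.754). The difference was therefore of like size but not called there. The 2 stress rats of slide 4 were at -4.24 (stress 5) and -4.53 (stress 6), beside -4.17 to -4.03 in the exercised rats. The Abcc9 call held in 3 of 18 fits that each left out 1 array (control 2, stress 5 or stress 6), with differences of 0.28 to 0.37 and limma adjusted p of 0.00679 to 0.106. The count over all 31293 probes moved as well, from 1166 to between 1 (without stress 2) and 4633 (without stress 5). Leaving out a control array does not change this difference, yet 352 probes were called without control 2 and 2 without control 6.

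The smooth muscle and fibroblast genes gave no call between exercised and stressed rats. Acta2 differed by -0.31 (SE 0.22, limma adjusted p = 0.397), Myh11 by 0.20 (SE 0.21, limma adjusted p = 0.595) and Tagln by 0.12 (SE 0.24, limma adjusted p = 0.798). Dcn differed by -0.06 (95% interval -0.67 to 0.55) and Lum by 0.01 (-0.83 to 0.85). On scan day 2 alone, with 4 arrays in each group, Rgs5 passed at 0.32 (limma adjusted p = 0.0180) and Acta2 at -0.74 (limma adjusted p = 0.0133). These 2 of 10 genes stood beside 7600 of all 31293 probes called in that fit. The stress arrays of that day were all on slide 3 and the exercised arrays all on slide 5.

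**Figure D2:**
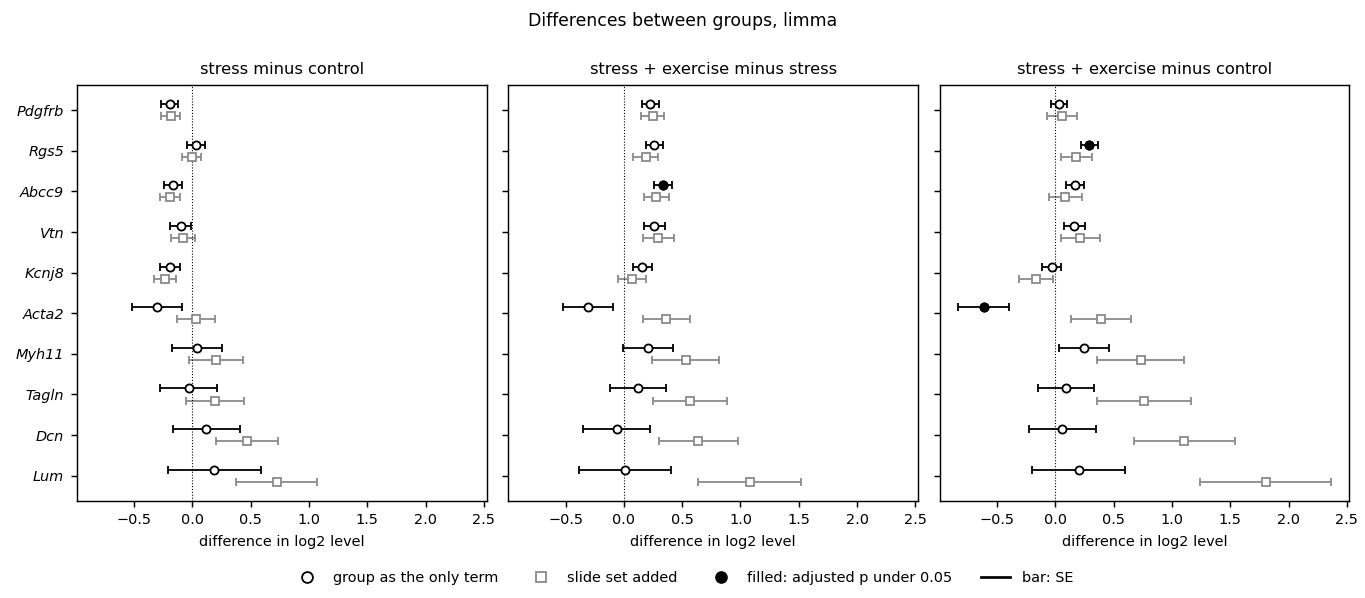
Difference in log2 level for each gene in the 3 comparisons, with bars for the SE from limma; circles are fits with group as the only term, squares fits with the slide set added, and filled symbols passed an adjusted p of 0.05. Abcc9 at 0.33, Rgs5 at 0.29 and Acta2 at -0.62 are filled, no square is, and the Acta2 square for exercise against control lies at 0.40.

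Between stress with exercise and control, 2 of 10 genes were called, 1 higher and 1 lower, against 26.1% of all probes (11% higher and 15.1% lower). Rgs5 rose by 0.29 on its brighter probe (SE 0.08, a factor of 1.22, limma adjusted p = 0.00955). The groups did not overlap, but only just, with stress and exercise 1 at -2.611 and control 2 at -2.614. The share of all probes without overlap in this comparison is not given here. The dimmer Rgs5 probe differed by 0.06 (SE 0.08, limma adjusted p = 0.613), so the probes gave different results, and the mean of both differed by 0.18 (limma adjusted p = 0.0796). Acta2 fell by 0.62 (difference -0.62, SE 0.22, a factor of 1.53, limma adjusted p = 0.0440), with 6 of 6 exercised rats below the control mean and groups that overlapped. Myh11 and Tagln, its partners in the contractile apparatus, differed by 0.25 (limma adjusted p = 0.438) and 0.09 (limma adjusted p = 0.823). Abcc9 differed by 0.17 (limma adjusted p = 0.129), Vtn by 0.16, Pdgfrb by 0.03, Kcnj8 by -0.03, Dcn by 0.06 and Lum by 0.20, and none of these passed. Over all probes 3434 were called higher and 4719 lower; after quantile normalization these were 4926 and 3979, and without scaling 722 and 4449. Control arrays enter 2 of the comparisons and stress arrays 2, so the comparisons are not independent of each other.

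Both calls against control were lost when slide set was added. Rgs5 then differed by 0.18 (limma adjusted p = 0.752), and Acta2 changed sign to 0.40 (limma adjusted p = 0.695). After quantile normalization Acta2 was at -0.57 (limma adjusted p = 0.0511) and not called, while Abcc9 was called at 0.23 (limma adjusted p = 0.0488). Within slides 4 and 5, Acta2 was higher by 0.36 in exercised than in stressed rats (limma adjusted p = 0.789), and within slides 1 to 3 it differed by 0.03 between stress and control (limma adjusted p = 0.978). Within scan day 1 Acta2 differed by -0.35 (limma adjusted p = 0.238) and Rgs5 by 0.28 (limma adjusted p = 0.172), and within scan day 2 by -0.87 (limma adjusted p = 0.0195) and 0.24 (limma adjusted p = 0.123). On day 1, 0 of 10 genes were called, beside 5723 of all 31293 probes, and on day 2 1 of 10, beside 5675. The Acta2 call held in 6 of 18 fits that left out 1 array (control 4, stress 1, 2, 5 or 6, or stress and exercise 1; limma adjusted p of 0.0171 to 0.0899 over the 18), and the Rgs5 call in 18 of 18. Acta2 was also read against Myh11 on the same array. Acta2 minus Myh11 was -0.24 to 0.41 on slides 1 to 3 and -0.74 to -0.32 on slides 4 and 5, and Acta2 minus Tagln was -0.96 to -0.21 and -1.55 to -0.97. The slide sets did not overlap in either difference, and all stress arrays lay with their own slide set. Acta1, the skeletal muscle actin and a close relative of Acta2, differed by -1.26 between exercised and control rats (limma adjusted p = 0.00658). In that comparison 2 of 5 tested skeletal muscle markers were lower (the other being Ckm), beside 15.1% of all probes. Between exercise and stress 1 of the 5 was lower, beside 2.56% of all probes. The summed level of these 5 markers was -3.32 to -3.05 in control, -3.59 to -3.17 in stress and -3.88 to -3.37 with exercise. Its median was -3.24 on slides 1 to 3 and -3.55 on slides 4 and 5. Whether the Acta2 probe also binds other actin transcripts was not tested.

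Genes of the same cell types beyond the 10 were taken from wider lists. Of 15 tested pericyte genes, 0 were called between stress and control. Cd248, which encodes the pericyte and stromal surface protein endosialin, was the 1 called between exercise and stress (0.32, SE 0.07, limma adjusted p = 0.0390), beside 3.73% of all probes. Against control 3 were higher with exercise, namely Cspg4 (the proteoglycan NG2, 0.26), Mcam (an adhesion molecule, 0.24) and Cd248 (0.20). Notch3, a receptor needed by arterial smooth muscle, was lower (-0.47, limma adjusted p = 0.0198). These 4 of 15 stood beside 26.1% of all probes called in that comparison, a share near the background. With slide set added, 7 of all 31293 probes were called there. The median difference of the 15 genes was 0.17 for exercise against stress and 0.06 for exercise against control, where the medians over all probes were 0.02 and 0.00443.

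Of 17 tested contractile genes, 0 were called in the first 2 comparisons, and against control 2 were higher and 3 lower with exercise, beside 11% higher and 15.1% lower over all probes. Actn1, which encodes an actin cross-linker, was higher by 0.30 (limma adjusted p = 0.00130) and Srf, the serum response factor itself, by 0.21 (limma adjusted p = 0.00926). Pln, which encodes the calcium pump regulator phospholamban, was at -0.83 (limma adjusted p = 0.00327), Tpm1 (tropomyosin) at -0.18 and Smtn (smoothelin) at -0.19. Tpm2 and Myl9, another tropomyosin and the regulatory myosin light chain, differed by -0.02 each and were not called. None of the 17 tested fibroblast and matrix genes passed in any comparison. Of 24 tested ligands, receptors and other partners of the 10 genes, 3 were higher in exercise than in control, beside 11% of all probes: S1pr3, a sphingosine phosphate receptor (0.17), Abcc8, the SUR1 receptor of the same channel family (0.26), and Eng, an endothelial co-receptor for TGF-beta (0.26). None of the 24 passed in the other comparisons.

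Markers of neighbouring cells are given for the same comparisons. Of 15 endothelial markers, 0 passed between exercise and stress, and against control 1 was higher (Esam) and 3 were lower (Abcb1a, Vwf and Ocln), beside 26.1% of all probes. Their summed level was 3.09 to 3.18 in control, 2.97 to 3.18 in stress and 3.05 to 3.20 with exercise. The microglial marker Tmem119 was higher with exercise than in stress (1 of 5 microglial markers), and against control Tmem119 was higher and Cx3cr1 lower. Against control 2 of 5 oligodendrocyte markers (Mog and Mag) and 1 of 6 neuron markers (Rbfox3) were higher, and 1 of 6 astrocyte markers (Gja1) was lower. Summed levels of these 4 lists overlapped between all groups, for example 1.55 to 1.72 in control, 1.51 to 1.68 in stress and 1.55 to 1.68 with exercise for microglia. Of 4 erythrocyte markers none passed. Of 6 choroid plexus markers none passed, but their summed level reached 4.57 in 1 control rat and 5.30 in 1 stress rat, against a median of 0.27 in control, -0.44 in stress and -0.21 with exercise. The stress rat with that high value, stress 1, was also the highest stress rat for Acta2, Myh11 and Tagln, and the control rat, control 3, was not high for any of them. The part of these markers in the vascular levels was not tested.

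The smooth muscle genes, and the pair Dcn and Lum, moved together when rats were compared within a slide set. No correlation is given over all 18 arrays, because the slide sets stood apart. All 45 pairs were tested in each set (90 tests, permutation p adjusted over all 90), and 13 passed for Pearson r and 5 for Spearman rho. Within the smooth muscle genes all 3 pairs passed for Pearson r in both sets. For Spearman rho 2 of the 3 passed on slides 1 to 3 and 1 on slides 4 and 5. For Acta2 and Myh11 r was 0.89 on slides 1 to 3 (n = 10, permutation p = 0.000780, adjusted 0.0149, rho 0.95) and 0.95 on slides 4 and 5 (n = 8, exact permutation p = 0.000769, adjusted 0.0149, rho 0.88). The other 4 values of the trio were 0.81 to 0.98. Dcn and Lum, neighbours in the genome, had r of 0.90 and 0.93, which passed in both sets (permutation, adjusted p = 0.0149 and 0.0233). Their rho of 0.65 and 0.90 passed in neither set (permutation, adjusted p = 0.223 and 0.0587).

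**Figure D3:**
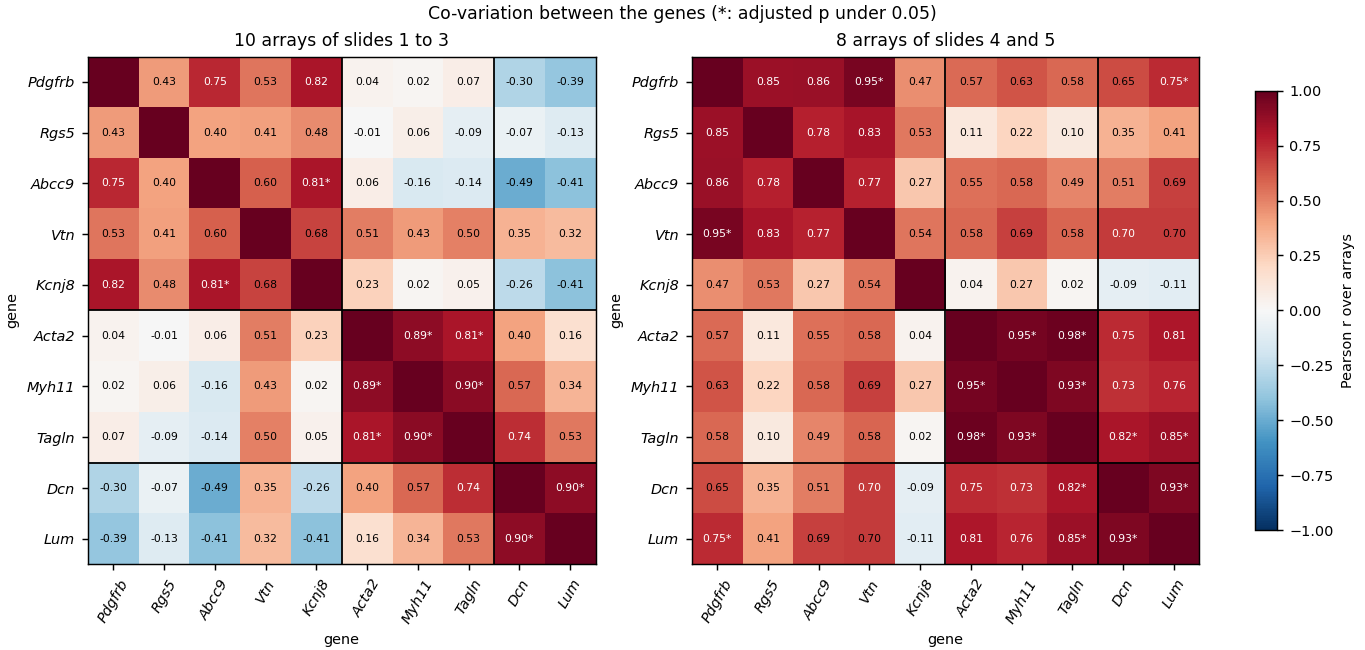
Pearson r between the 10 genes over arrays, with slides 1 to 3 on the left and slides 4 and 5 on the right; lines part the pericyte, smooth muscle and fibroblast genes and stars mark an adjusted permutation p under 0.05. The smooth muscle block holds r of 0.81 to 0.98, while pericyte genes against smooth muscle genes hold -0.16 to 0.51 on slides 1 to 3 and 0.02 to 0.69 on slides 4 and 5.

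Pericyte genes had positive r with each other in both sets, but these values leaned on a few rats. Their 10 pairs had r of 0.40 to 0.82 on slides 1 to 3 (median 0.57) and of 0.27 to 0.95 on slides 4 and 5 (median 0.78), and 1 pair passed in each set. On slides 1 to 3 this was the channel pair Abcc9 and Kcnj8 (r = 0.81, permutation, adjusted p = 0.0362), whose r on slides 4 and 5 was 0.27. On slides 4 and 5 it was Pdgfrb and Vtn (r = 0.95, exact permutation, adjusted p = 0.0248). Without the 2 arrays farthest from the median of the first gene, r of these 2 pairs was 0.27 and 0.58. With the same step, r over all 10 pairs ran from -0.26 to 0.64 on slides 1 to 3. On slides 4 and 5 it ran from -0.68 to 0.73. For Spearman rho 0 of the 10 pairs passed in either set. Between pericyte and smooth muscle genes 0 of 15 pairs passed in either set, with a median r of 0.05 on slides 1 to 3 and of 0.55 on slides 4 and 5. Tagln passed with Dcn and with Lum on slides 4 and 5 only (r = 0.82 and 0.85), and on slides 1 to 3 these were 0.74 and 0.53. Of the 10 pairs of a pericyte with a fibroblast gene, Pdgfrb and Lum passed on slides 4 and 5 (r = 0.75, exact permutation, adjusted p = 0.0489), and their r on slides 1 to 3 was -0.39. The median r of these pairs was -0.28 on slides 1 to 3 and 0.58 on slides 4 and 5. Whether the sets differ in these values was not tested.

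Without the 2 arrays farthest from the median, 0 of 90 tests passed on the 8 and 6 arrays left. The size of r fell in some pairs and held in others: the 6 values within the smooth muscle trio were 0.56 to 0.92, and Dcn with Lum was at 0.65 on slides 1 to 3 and at 0.93 on slides 4 and 5. With the group means removed within each slide set, 6 of 90 passed, 3 of them in the trio, whose 6 values were then 0.83 to 0.97. All 6 tests of the trio passed with no scaling, with quantile normalization and with normexp background correction. The authors' matrix values gave the same r by construction, because centring removes the 1 constant per array that sets them apart. Dcn with Lum passed in neither set after quantile normalization (r = 0.75 and 0.88, permutation, adjusted p = 0.0918 and 0.0526), and after normexp it did not pass on slides 4 and 5 (r = 0.84, exact permutation, adjusted p = 0.0795). With no scaling 19 of 90 tests passed, among them Pdgfrb with Abcc9, Pdgfrb with Kcnj8 and Vtn with Kcnj8 on slides 1 to 3.

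**Figure D4:**
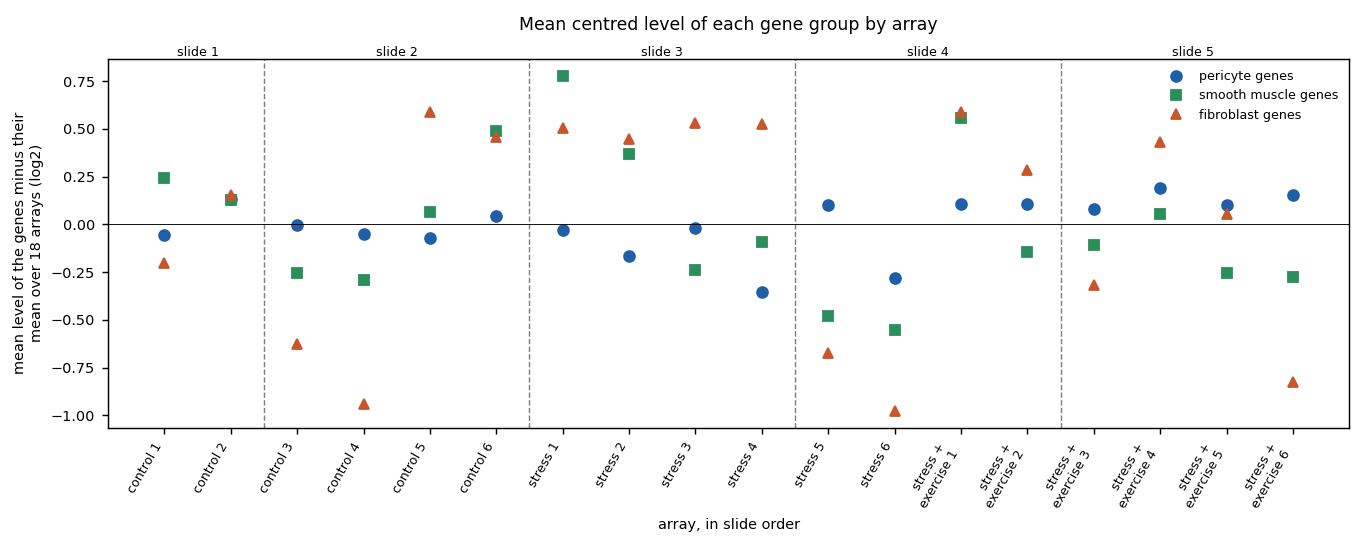
Mean level of the 5 pericyte, 3 smooth muscle and 2 fibroblast genes on each array, each gene centred on its mean over 18 arrays (log2), with arrays in slide order and dashed lines between slides. Pericyte points stay between -0.35 and 0.19, smooth muscle points reach 0.78 in stress 1, and fibroblast points span -0.98 in stress 6 to 0.59 in control 5.

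Averaged by cell type and centred on the mean of 18 arrays, the pericyte genes ran from -0.35 (stress 4) to 0.19 (stress and exercise 4). All 6 exercised rats were above 0, and so were stress 5 (0.10), control 2 (0.13) and control 6 (0.04). Stress 5, on slide 4, lay within the exercised range of 0.08 to 0.19. The smooth muscle genes ran from -0.55 (stress 6) to 0.78 (stress 1), and the fibroblast genes from -0.98 (stress 6) to 0.59. Rats of 1 group and 1 slide could differ widely: on slide 2 the fibroblast mean was -0.62 and -0.94 in control 3 and 4 and 0.59 and 0.46 in control 5 and 6. On slide 3 all 4 stress rats had fibroblast means of 0.45 to 0.53, while their smooth muscle means ran from -0.24 to 0.78.

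The genes most like each of the 10 were found among 12979 named genes, likeness being the lower of the Pearson r on slides 1 to 3 (10 arrays) and on slides 4 and 5 (8 arrays). These are descriptions over arrays that share depth and dissection. For Acta2 the nearest were Tpm2 (0.92), Myh11 (0.89) and Myl9 (0.86). For Myh11 they were Tpm2 (0.94), Tagln (0.90) and Acta2 (0.89), and for Tagln they were Myh11 (0.90), the adhesion molecule gene Icam1 (0.90) and Tpm2 (0.89). Of the 17 contractile genes beyond the 10, 4 had a likeness over 0.8 to Acta2, against 10 of all 12979 genes and 0 of the 17 fibroblast and matrix genes. The median likeness was higher for the fibroblast and matrix list than for the contractile list, at 0.56 and 0.39 for Acta2, 0.63 and 0.37 for Myh11 and 0.75 and 0.40 for Tagln. For Tagln 6 fibroblast and matrix genes and 4 contractile genes were over 0.8. For Dcn the nearest were Aoc3 (0.96), Emp1 (0.96) and Ctsk (0.96), which encode a vascular amine oxidase, a membrane protein and cathepsin K. Of the 17 fibroblast and matrix genes, 13 had a likeness over 0.8 to Dcn, led by Mgp (matrix Gla protein, 0.96), where 123 of all 12979 genes did. For Lum the nearest were Dcn (0.90), RT1-Da (a rat MHC class II gene, 0.87) and Mfap5 (a microfibril protein, 0.86).

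Pericyte genes had fewer close companions. For Kcnj8 they were Foxs1 (0.84), a forkhead factor of pericytes, Sult1d1 (0.79) and Trim26 (0.77). For Pdgfrb they were the laminin gene Lamc3 (0.82), the desaturase gene Fads2 (0.81) and the endothelial receptor gene Acvrl1 (0.78). Abcc9 had Adap2 (0.81), Akr1c15 (0.80) and the semaphorin gene Sema6d (0.80), and Vtn had the proteoglycan gene Srgn (0.85), the aminopeptidase gene Enpep (0.82) and Six4 (0.82). Rgs5 had Defb20 (0.73), Dock1 (0.72) and S1pr3 (0.71). The 15 wider-list pericyte genes had a median likeness of 0.20 to Pdgfrb, 0.12 to Rgs5 and 0.20 to Abcc9. It was 0.42 to Vtn and 0.06 to Kcnj8. For the 15 endothelial markers, in the same order, it was 0.23, 0.24, 0.37, 0.31 and 0.06. Over all 12979 genes it was -0.23 to -0.16. In that pericyte list Des had 0.83 to 0.86 with Acta2, Myh11 and Tagln, Tbx18 had 0.86 with Lum and Ifitm1 0.91 with Dcn. The count of genes at 0.8 or more was 0 for Rgs5, 1 for Kcnj8, 2 for Pdgfrb and for Abcc9 and 4 for Vtn, against 10 to 123 for the other 5 genes. The wider spread of those 5 genes between rats moved together with their higher counts, and its part was not tested.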

How the data were processed

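RNA of 18 rat hypothalami was labelled with Cy3 and hybridised to Agilent 1-colour arrays. The deposited intensity values are processed signals, already corrected for background by Agilent Feature Extraction, version 12.1.0.3 per the file headers and 9.1 per the submitters' processing notes. The labels give different RNA inputs in their extraction and labelling texts. The authors' deposited series matrix holds the same intensity times 1 constant per array (1.02 to 1.24), so it is linear and not centred by gene. The sources used here do not say how it was chosen.

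Control and outlier spots (297 to 580 per array) were left out, spots of a probe were averaged, and log2 values were centred on the 75th percentile over spots that are not controls. A probe was tested if well above background on at least 5 of 6 arrays of a group. Of 45598 probes, 21220 were named by transcript accession through RefSeq genes of GRCr8; the array was designed on another build, so no probe positions are printed, and those of the printed sequences are RefSeq's. A gene is represented by its brightest tested probe. Differences were tested with limma 3.58.1 in R 4.3.3 over 18 arrays with group as the only term. Adjusted p-values are Benjamini-Hochberg values over 31293 probes, called under 0.05, two-sided. Each limma p-value sets a group difference against the residual spread between arrays, 1 rat each. That spread also holds any shift between slide sets within stress. Correlation p-values come from shuffling the arrays of a slide set across its groups and slides. Correlations used permutations (100000 for 10 arrays, exact for 8) in Python 3.11.15 with scipy 1.17.1. Fits were checked on simulated data with independent noise and no slide or scan day effect, so the check does not cover such effects.

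The named genes are the 10 genes, their 3 nearest by likeness, and up to 4 passing genes per wider list. Genes named outside this rule were picked after their values were seen. They are Acta1, Smtn, Tpm2, Myl9, Mgp, Ckm, Esam, Abcb1a, Vwf, Ocln, Tmem119, Cx3cr1, Mog, Mag, Rbfox3, Gja1, Des, Tbx18 and Ifitm1. The genes, lists, tests and slide sets were chosen with earlier results of these data known. The alternatives covered scaling, background, filter, probe choice, slide, scan day, replicate number, single arrays and the permutation test. The planned normexp correction used median in place of mean foreground signals, which are not among the columns used. Replicate numbers in the labels do not pair rats: rats of the same number had median correlations of their deviations of -0.11, -0.08 and 0.02 between groups. A protein comparison of Dcn and Lum was not made here.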

Additional observations from a re-analysis of the deposited data

Results flagged for a closer look

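In 3 of 33 sets of 6 rats (1 probe in 1 group), the rat at one end stood off from the rest by more than Dixon's limit for 6 values; chance does this in about 1 in 20 sets. Pdgfrb in control 1 was at -2.79, where the other control rats were at -2.67 to -2.61. Vtn in stress and exercise 4 was at -1.13, above the -1.40 to -1.30 of the other exercised rats. Acta2 in stress and exercise 1 was at -3.68, where the others were at -4.30 to -4.07.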

How the results depend on the processing

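Most values kept their direction and their side of the threshold, but most came from differences not called in the main fit. Over the differences of the single genes, 881 of the alternative values kept both. They include the authors' matrix values, which equal the main ones once centred. Another 47 lost a call, 10 gained one, 70 changed sign with no call on either side and 2 reversed a call. Only the 3 differences called in the main fit could lose or reverse one. With 1 array left out, Abcc9 kept its call against stress in 3 of 18 fits. Against control, Acta2 kept its call in 6 and Rgs5 in 18. The 2 reversals were Acta2 between exercise and control, at 0.40 with the slide set and at 0.42 with slide set and scan day, against -0.62; the cause was not tested. Between stress and control, where 0 genes were called, 1 was called within scan day 1 and 2 by the unadjusted exact permutation test. Of all 31293 probes, 3749 were called within scan day 1, and 3696 had an unadjusted limma p under 0.05 in the main fit. The number of all probes that pass the exact test is not given here. Between exercise and stress, where 1 was called, 0 were called with no scaling, with no filter on dim probes, with slide as a random block, with the slide set, with slide set and scan day, within slides 4 and 5 and within scan day 1. With quantile normalization, normexp, scan day as a block or within scan day 2 there were 2, and with the unadjusted exact test 4. Of all 31293 probes, the first 4 fits called 1528, 1503, 3110 and 7600. Beside the exact test, 7612 probes had an unadjusted limma p under 0.05 in the main fit. Leaving out each array in turn gave 0 to 4 genes, beside 1 to 4633 of all probes. Between exercise and control, where 2 were called, 1 was called with normexp, with no filter, with the mean of all probes of a gene and within scan day 2. Over all probes these fits called 7730, 6863, 7179 and 5675. With quantile normalization 2 were called, Rgs5 and Abcc9, without Acta2. There were 0 with slide as a random block, the slide set, slide set and scan day, or within scan day 1, and leaving out arrays gave 1 to 2. With the replicate number as a block 0, 0 and 2 genes were called in the 3 comparisons, and 0, 2 and 7105 probes, against 0, 1166 and 8153. Of the tests of co-variation 13 passed, 19 with no scaling, 8 with quantile normalization, 8 with normexp, 6 with group means removed and 0 without the 2 arrays farthest from the median. Over all probes, scan day as a block gave 467, 3110 and 9830 calls, slide as a random block 0, 0 and 1757, the slide set 1, 5 and 7, and no filter 0, 2 and 6863. Alternatives within slide sets, within scan days, with normexp, with slide set and scan day together and with the percentile over probes were added after seeing the data. Lum was not well above background on 3 of 18 arrays, which limits what its values there can show.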
